A study of Mus musculus with 14 samples.

Results

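The mRNA of the BCL2 family and of caspase-12 was measured in mouse liver after 2 operations, through 10 genes picked by symbol out of the 25212 rows of the deposited count table. They are the survival members Bcl2, Bcl2l1 and Mcl1, the effectors Bax and Bak1, the BH3-only members Bid, Bcl2l11, Bbc3 and Pmaip1, and Casp12. Every liver came from a male C57BL/6 mouse, with 1 library per liver, and every mouse, controls included, was kept on a high fat diet (HFD, 60% of energy as fat) that began at 6 weeks of age and had lasted 12 weeks at the time of surgery. The 5 DIO livers were from diet-induced obese mice without any operation, so that no sham-operated liver is among these samples. The 4 GB-IL livers were from DIO mice in which the gallbladder was joined to the ileum and the common bile duct ligated, and the 5 RYGB livers from mice with Roux-en-Y gastric bypass. Liver was sampled 8 weeks after the operation, or after the same interval without one.

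BCL2 family proteins meet at the outer mitochondrial membrane. BAX and BAK1 permeabilize it and release cytochrome c, BCL2, BCL-XL (encoded by Bcl2l1) and MCL1 hold them back, and the BH3-only proteins relay death signals by binding the survival proteins or the effectors. Hepatocytes depend on MCL1 and BCL-XL for survival and, after death receptor signalling, on the cleavage of BID by caspase-8 to commit to apoptosis, whereas caspase-12 is a rodent caspase of the inflammatory group that has been linked to stress of the endoplasmic reticulum (ER). An mRNA level shows neither cleavage, phosphorylation nor protein stability, by which several of these proteins are controlled, and a count per gene does not separate the splice forms of Bcl2l1 or Bcl2l11.

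Of the members, Casp12 was the one whose mRNA differed between groups past an adjusted p of 0.05. It lies on chromosome 9 (chr9:5345430-5373032, plus strand, GRCm38, which is mm10), next to Casp4 (chr9:5308828-5336783, plus strand), another inflammatory caspase gene whose mRNA was also higher in GB-IL livers. The bases before the annotated starts of these neighbouring genes are shown because both mRNAs passed the test in GB-IL against DIO. Whether the 2 levels vary together within groups was not tested. Both were taken from RefSeq promoter windows on GRCm38.p6 (250 bases before the RefSeq start) and printed up to the GENCODE gene start, so that no transcribed base of that annotation is shown. Capitals mark matches to a CCAAT box or a STAT motif in the Casp12 sequence and to the ETS core in the Casp4 sequence.
Casp12, chr9:5345226-5345429, plus strand: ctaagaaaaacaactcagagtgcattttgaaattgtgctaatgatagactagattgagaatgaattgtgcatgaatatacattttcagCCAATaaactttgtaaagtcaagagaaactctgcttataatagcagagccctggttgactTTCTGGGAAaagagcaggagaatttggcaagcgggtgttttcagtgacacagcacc
Casp4, chr9:5308599-5308827, plus strand: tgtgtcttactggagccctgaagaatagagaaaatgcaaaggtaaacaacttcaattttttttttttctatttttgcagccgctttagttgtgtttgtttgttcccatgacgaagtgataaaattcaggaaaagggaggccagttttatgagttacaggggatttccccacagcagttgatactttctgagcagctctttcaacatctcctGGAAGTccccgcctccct
Each window of 250 bases was searched on both strands for AP-1 (TGANTCA), a C/EBP-ATF response element (TGATGNAA), STAT (TTCNNNGAA), E-box (CACGTG), CRE (TGACGTCA), CCAAT box (CCAAT), TATA box (TATAAA) and ETS core (GGAAGT) letters. The Casp12 window held 2 STAT matches, 102 and 36 bases before the RefSeq start. STAT letters occurred in 7.02% of the 32851 promoter windows searched, and 0.317% held 2 or more. It also held 2 CCAAT matches, 162 and 46 bases before the start. CCAAT letters were found in 33.8% of windows, and 10.1% held 2 or more. Of each pair the match nearer the start lies past the end of the printed stretch. The Casp4 window held a single ETS core, found in 19.7% of windows, and the windows of the 2 genes shared no motif of those searched. A match is a description of letters and not evidence of a bound factor.

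Total counts lay between 18440676 and 21473005 in DIO, 19231679 and 26131278 in GB-IL and 18223135 and 28656631 in RYGB livers, and no library duplicated another. All 9 hepatocyte markers, among them Alb and Hnf4a, were detected in every liver. The GB-IL livers were heterogeneous. The leading principal component of all tested genes (48.5% of variance) placed the DIO livers between 21.9 and 45.7, with GB-IL liver 4 among them at 35.3 and the remaining GB-IL livers at -134, -106 and -20.1. GB-IL liver 1 also carried skeletal muscle mRNA, its 6 muscle markers summing to 1099 CPM of the total count against at most 3.02 CPM in any other liver, where several of the 6 were at 0 in some livers. Exocrine pancreas and gut markers summed to 46.2 to 462 CPM in GB-IL, 109 to 235 CPM in DIO and 86.4 to 139 CPM in RYGB livers. Among them Cpa1, Prss2 and Pnlip ranged from 0 reads up to 2515, 2698 and 2416 reads over all livers. Because the tissue was bulk liver, fewer cells of a type and less RNA per cell cannot be told apart.

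Levels between genes were compared as CPM, the counts of a gene relative to the total count of its library scaled by TMM, per kb of annotated exon. In DIO livers Mcl1 stood first at 36.2 ± 3.33 CPM per kb (SD, n = 5). Bax followed at 10.9 ± 2.49 and Bcl2l1 at 8.55 ± 0.597, and the gap between these neighbours was smaller than the sum of their SDs. Bak1 (6.15 ± 1.45) and Bid (5.29 ± 0.793) likewise did not separate, nor did the last 3 in order, Casp12 (0.403 ± 0.136), Pmaip1 (0.344 ± 0.131) and Bcl2 (0.170 ± 0.0625). Bbc3 (2.42 ± 1.09) and Bcl2l11 (0.925 ± 0.202) stood apart from their neighbours. Among survival members Mcl1 and Bcl2l1 were the abundant ones, while Bcl2 itself was the lowest member per kb in all 3 groups. The first 4 places were the same in GB-IL and RYGB livers, and the order differed only in that Bbc3 stood before Bid in GB-IL. Within GB-IL the spread was so wide that Mcl1 against Bax and Pmaip1 against Bcl2 were the only neighbours that differed by more than their SDs.

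**Figure D1:**
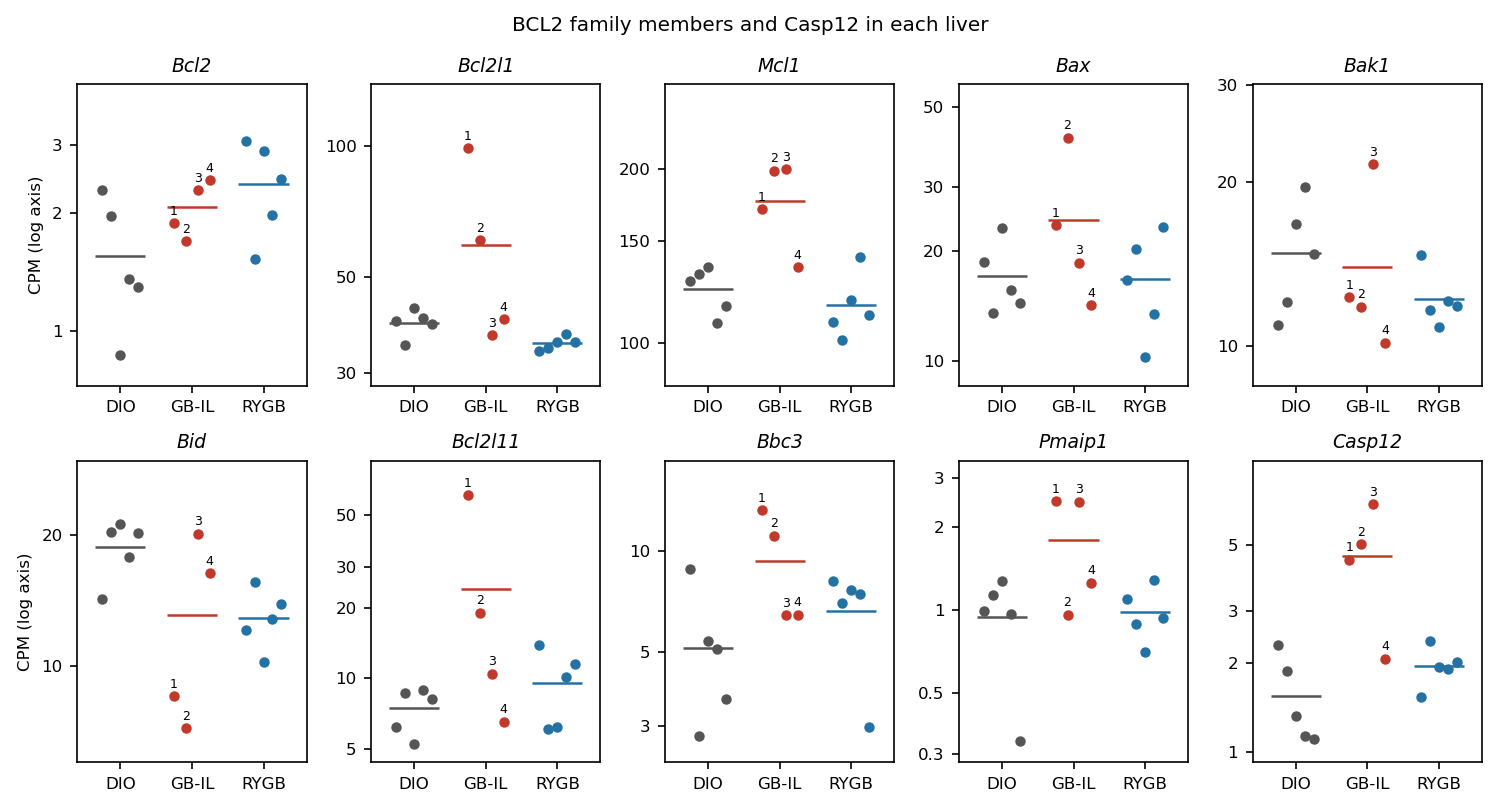
Level of each member in each liver, in CPM on a log axis, for 5 DIO, 4 GB-IL and 5 RYGB livers; each point is a liver, the bar is the group mean, and the digits number the GB-IL livers. GB-IL livers 1, 2 and 3 lie above every DIO liver for Casp12 (4.47 to 6.87 CPM), Mcl1 (170 to 200 CPM) and Bcl2l11 (10.5 to 60.6 CPM), whereas GB-IL liver 4 lies among the DIO livers for each of them.

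The first comparison asked how diversion of bile to the ileum changed these mRNAs relative to unoperated obesity. Of 10 members tested, 8 were higher and 2 lower in GB-IL than in DIO livers, where 53.1% of all genes were higher, with a median log2 fold change of 0.55 against 0.04 over all 14252 genes tested. Only Casp12 passed an adjusted p of 0.05 (edgeR's quasi-likelihood test, adjusted over all genes tested), in a comparison in which 3.26% of all genes passed, 3.15% higher and 0.112% lower. At an unadjusted p below 0.05 there were 6 members, all higher, against 23.1% of all genes, 16.7% higher and 6.43% lower. No member separated the groups without overlap, as 2.67% of all genes did upward and 1.51% downward.

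Casp12 mRNA was 2.97-fold higher in GB-IL than in DIO livers. Its level was 4.47, 5.03, 6.87 and 2.07 CPM in GB-IL livers 1 to 4. In the 5 DIO livers it was 2.30, 1.87, 1.32, 1.13 and 1.11 CPM, from 20 to 44 reads per liver. GB-IL livers 1, 2 and 3 thus exceeded every DIO liver, and GB-IL liver 4 fell below the highest of them. The log2 fold change was 1.57 (SE 0.326, 95% interval 0.87 to 2.26, adjusted p = 0.0287, edgeR), from means of 4.61 ± 1.98 (SD, n = 4) and 1.55 ± 0.523 CPM (SD, n = 5). The call did not survive every omission of a liver: adjusted p was 0.0709 without GB-IL liver 1, 0.0614 without GB-IL liver 2, and between 0.0674 and 0.0942 without any one of DIO livers 1, 2, 3, 4 or 5, while the log2 fold change stayed between 1.31 and 1.81. Without GB-IL liver 4, adjusted p was 0.00105. No run of 50 bases in its exons was shared with another annotated gene.

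The largest fold change and the largest spread within GB-IL livers both belonged to a BH3-only member. Bcl2l11, which encodes BIM, a binder of all the main survival proteins, was at 60.6, 19.0, 10.5 and 6.53 CPM in GB-IL livers 1 to 4 against 6.18, 8.66, 5.24, 8.88 and 8.17 CPM in the DIO livers. GB-IL liver 1 stood far above the others, 9.28 times the level of GB-IL liver 4, which lay within the DIO range. The log2 fold change was 1.70 (SE 0.50, 95% interval 0.63 to 2.76, adjusted p = 0.0747, edgeR), and without GB-IL liver 1 it was 0.69 (adjusted p = 0.378). Bcl2l11 passed the threshold without GB-IL liver 3 (adjusted p = 0.0458), without GB-IL liver 4 (adjusted p = 0.00696) and with DESeq2 (adjusted p = 0.0146, where 9.07% of all genes passed). Voom with sample quality weights, which put 4.13% of all genes past the threshold, lowered it to 0.61 (adjusted p = 0.428), the replicate block gave 1.36 (adjusted p = 0.167), and the fit of the 2 compared groups an adjusted p of 0.178.

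Bbc3, which encodes PUMA, and Pmaip1, which encodes NOXA, are transcriptional targets of p53. Bbc3 ranged from 6.45 to 13.3 CPM in GB-IL and from 2.80 to 8.85 CPM in DIO livers, with a log2 fold change of 0.86 (SE 0.358, adjusted p = 0.176, edgeR). Pmaip1 was among the lowest members, with 0.960 to 2.47 CPM in GB-IL and 0.336 to 1.27 CPM in DIO livers, the lowest DIO value resting on 7 reads. For each of them 2 of 4 GB-IL livers exceeded every DIO liver. The log2 fold change of Pmaip1 was 0.93 (SE 0.379, adjusted p = 0.169, edgeR).

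Bid, the substrate through which caspase-8 engages mitochondria, was the member with the lowest log2 fold change in GB-IL. It was at 8.51, 7.17, 20.2 and 16.4 CPM in GB-IL livers 1 to 4 and at 14.3, 20.4, 21.2, 17.8 and 20.2 CPM in DIO livers. GB-IL livers 1 and 2 lay below every DIO liver and the other two within the DIO range. The difference did not pass the test (log2 fold change -0.52, SE 0.268, adjusted p = 0.252, edgeR). It was -0.34 without GB-IL liver 2, -0.81 without GB-IL liver 3 (adjusted p = 0.0821) and -0.27 with voom. Exons of Bid overlap those of Bcl2l13 on the opposite strand over 17.7% of their length, and the strand setting used for counting is not given in the sources used here, so that reads of the 2 genes may not be separable there. Bcl2l13 itself gave -0.42 (adjusted p = 0.257, edgeR).

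Among the survival members, Mcl1 gave the steadiest difference. It was at 170, 199, 200 and 135 CPM in GB-IL livers 1 to 4 and at 128, 132, 136, 108 and 116 CPM in DIO livers. GB-IL liver 4 was the one that did not exceed every DIO liver, falling short by less than 1 CPM. The log2 fold change was 0.51 (SE 0.165, 95% interval 0.15 to 0.86, adjusted p = 0.0975, edgeR). DESeq2 gave an adjusted p of 0.028, where 9.07% of all genes passed, and voom with sample quality weights gave 0.0792. With edgeR, adjusted p was 0.173 without a filter, 0.219 with the replicate block and 0.233 with the 2 compared groups only.

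Bcl2l1 had nearly the same level in 7 livers of the comparison and stood out in the other two. It was at 98.9, 60.7, 36.7 and 40.0 CPM in GB-IL livers 1 to 4, whereas the DIO livers lay within 34.9 to 42.4 CPM. Its log2 fold change of 0.59 (SE 0.231, adjusted p = 0.153, edgeR) became 0.22 (adjusted p = 0.537) without GB-IL liver 1. Bcl2, at 1.69 to 2.43 CPM in GB-IL and 0.865 to 2.30 CPM in DIO livers, gave 0.42 (SE 0.302, adjusted p = 0.394, edgeR).

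Neither effector passed the test in GB-IL livers. Bax was at 23.6, 41.1, 18.6 and 14.2 CPM in GB-IL livers 1 to 4, against 13.6 to 23.3 CPM in DIO, with a log2 fold change of 0.51 (SE 0.299, 95% interval -0.13 to 1.15, adjusted p = 0.307, edgeR), and 0.12 without GB-IL liver 2. Bak1 overlapped throughout, at 10.1 to 21.5 CPM in GB-IL and 10.9 to 19.5 CPM in DIO, and gave -0.09 (95% interval -0.57 to 0.40). The sign for Bak1 turned positive without GB-IL liver 4, without DIO liver 4 and with voom and sample weights. Exons of Bak1 overlap those of Ggnbp1 on the opposite strand over 25.5% of their length, and exons of Bax those of Gm45808 on the same strand over 12.2%.

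Markers of other cell types also differed between these livers. The 6 cholangiocyte markers summed to 299, 243, 206 and 68.8 CPM of the total count in GB-IL livers 1 to 4 against 35.4 to 65.3 CPM in DIO livers. Among them Spp1 ranged from 510 to 5452 reads over all livers. Krt19, Krt7, Epcam, Sox9 and Krt23 reached at most 243, 218, 195, 211 and 230 reads. Most of the sum in GB-IL livers 1, 2 and 3 was therefore Spp1, and it does not show a rise of each marker. For the 7 neutrophil markers the sums were 98.5, 40.4, 293 and 2.56 CPM against 2.42 to 5.18 CPM, with Ly6g, Retnlg, Mpo and Camp at 0 in some livers. The 10 macrophage and Kupffer cell markers, all detected in every liver, summed to 621, 1018, 2246 and 953 CPM against 427 to 732 CPM. The 8 stellate cell and fibroblast markers, again all detected, summed to 823, 254, 237 and 306 CPM against 155 to 276 CPM. GB-IL livers 2 and 3 thus lay within the DIO range. Des, 1 of these 8 markers, ranged from 68 to 4627 reads over all livers. The highest sum was that of GB-IL liver 1, which carried skeletal muscle mRNA, and the part of muscle in this sum was not tested. The hepatocyte markers averaged 110907 CPM in GB-IL against 125209 CPM in DIO livers. GB-IL liver 4, which lay with the DIO livers for Casp12, Mcl1 and Bcl2l11, had the lowest cholangiocyte and neutrophil sums of its group, but its macrophage and stellate sums lay above every DIO liver, whereas for macrophages GB-IL liver 1 lay within the DIO range. Over 12 marker lists and 3 comparisons (36 exact two-sided permutation tests) the smallest adjusted p was 0.179. Unadjusted exact permutation p-values in GB-IL against DIO were 0.00794 for cholangiocyte, 0.0238 for macrophage and for stellate cell, 0.0397 for neutrophil and 0.0556 for hepatocyte markers. The part of cell composition, of the muscle mRNA in GB-IL liver 1, and of pancreas and gut mRNA in the levels of the members was not tested.

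**Figure D2:**
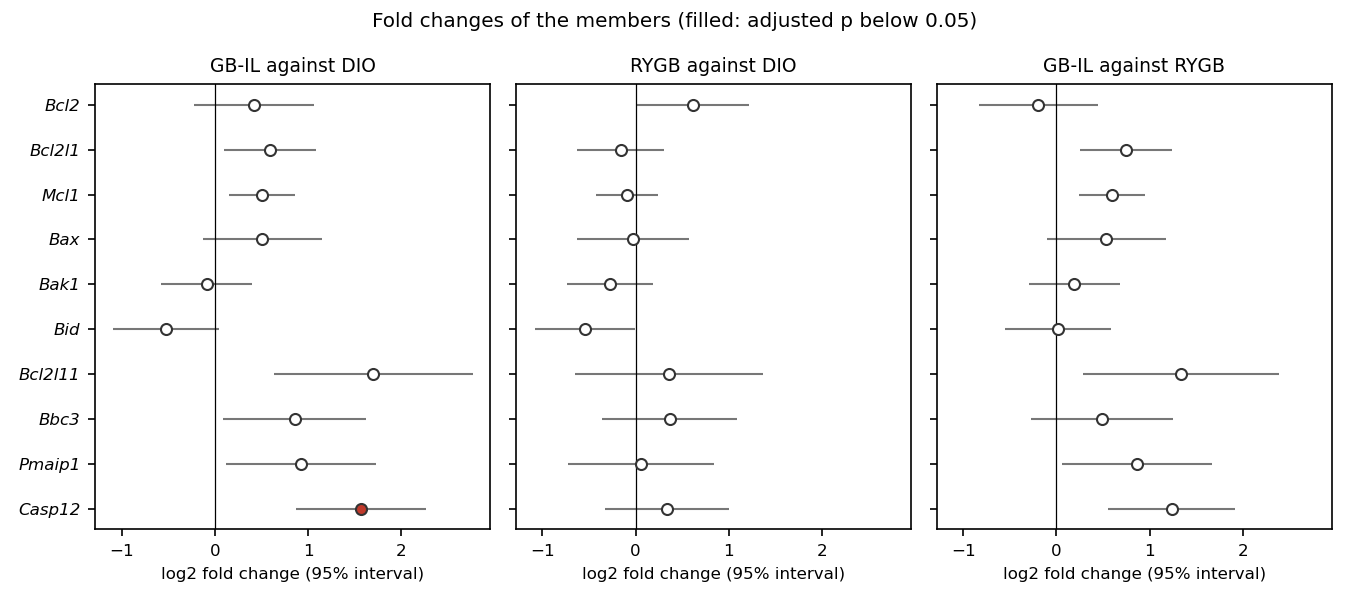
Log2 fold change of each member with its 95% interval in the 3 comparisons (4 GB-IL, 5 DIO and 5 RYGB livers; edgeR); a filled point has an adjusted p below 0.05 over all genes tested. The one filled point is Casp12 in GB-IL against DIO (1.57), and the RYGB against DIO values lie between -0.54 and 0.61.

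The second comparison set RYGB against the same DIO livers. The members were 5 higher and 5 lower, beside 51.5% of all genes higher, with a median log2 fold change of 0.02 against 0.01 over all genes. None passed the test with edgeR or DESeq2, in a comparison in which 0 of 14252 genes passed with edgeR, and 2 had an unadjusted p below 0.05, as did 8.71% of all genes, 5.35% higher and 3.36% lower. No member separated these groups without overlap, as 1.87% of genes did upward and 1.66% downward. One was Bcl2, at 3.06, 1.53, 2.89, 1.99 and 2.46 CPM in RYGB livers 1 to 5 against 2.30, 1.97, 0.865, 1.36 and 1.30 CPM in DIO, where 3 of 5 RYGB livers exceeded every DIO liver (log2 fold change 0.61, SE 0.286, adjusted p = 0.572, edgeR). The other was Bid, at 12.1, 15.6, 10.2, 12.8 and 13.9 CPM in RYGB livers, 4 of which lay below every DIO liver (log2 fold change -0.54, SE 0.251, adjusted p = 0.572, edgeR). Voom with sample quality weights gave Bid an adjusted p of 0.0273, its only member past the threshold in this comparison, in which it put 11.9% of all genes past it, so that 1 of 10 members is near that share. DESeq2 put 0 members and 0.681% of all genes past the threshold.

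Casp12 in RYGB livers was at 1.53, 2.37, 1.94, 1.90 and 2.01 CPM, and 1 of 5 exceeded every DIO liver. Its log2 fold change of 0.33 had a 95% interval of -0.33 to 1.00. Bcl2l1 was the least variable member in RYGB livers, with 33.7 to 36.9 CPM, and Mcl1 ranged from 101 to 141 CPM. The 95% intervals were -0.62 to 0.31 for Bcl2l1 and -0.42 to 0.24 for Mcl1, so that a rise of the size estimated for Mcl1 in GB-IL livers (0.51) lay outside its interval. For Bcl2l1 this held for the estimate from all GB-IL livers (0.59), but not for those without GB-IL liver 1 (0.22) or with voom (0.15). In RYGB livers the stellate cell and fibroblast markers summed to 230 to 519 CPM against 155 to 276 CPM in DIO, and the cholangiocyte markers to 58.5 to 70.3 against 35.4 to 65.3 CPM (unadjusted exact permutation p = 0.0317 and 0.0397, both 0.179 adjusted), and their part in these values was not tested.

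Side by side, with DIO livers shared by the 2 comparisons, Bid gave -0.52 in GB-IL and -0.54 in RYGB, and Casp12 1.57 and 0.33. The test of a difference between the operations was GB-IL against RYGB. There 9 members were higher in GB-IL, as were 52.5% of all genes, and 1, Bcl2, was lower, the median log2 fold change being 0.57 against 0.03 over all genes. None passed with edgeR, nor did any of the 14252 genes, and 5 had an unadjusted p below 0.05, all higher, against 22.1% of all genes, 15.3% higher and 6.77% lower. Again no member was without overlap, a separation found upward for 1.27% and downward for 1.57% of genes. Casp12 came closest among the members, with a log2 fold change of 1.24 (SE 0.321, 95% interval 0.55 to 1.92, adjusted p = 0.0881, edgeR), then Mcl1 at 0.60 (SE 0.165, adjusted p = 0.098, edgeR). DESeq2 put both past the threshold (adjusted p of 0.0119 for Casp12 and 0.00972 for Mcl1), in a comparison in which DESeq2 put 5.93% and voom 0.807% of all genes past it, and voom with sample quality weights put 0 members past it. For both genes 3 of 4 GB-IL livers exceeded every RYGB liver. For Bid the 2 operations differed by 0.02 (95% interval -0.55 to 0.59), a sign that turned with several omissions of single livers.

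**Figure D3:**
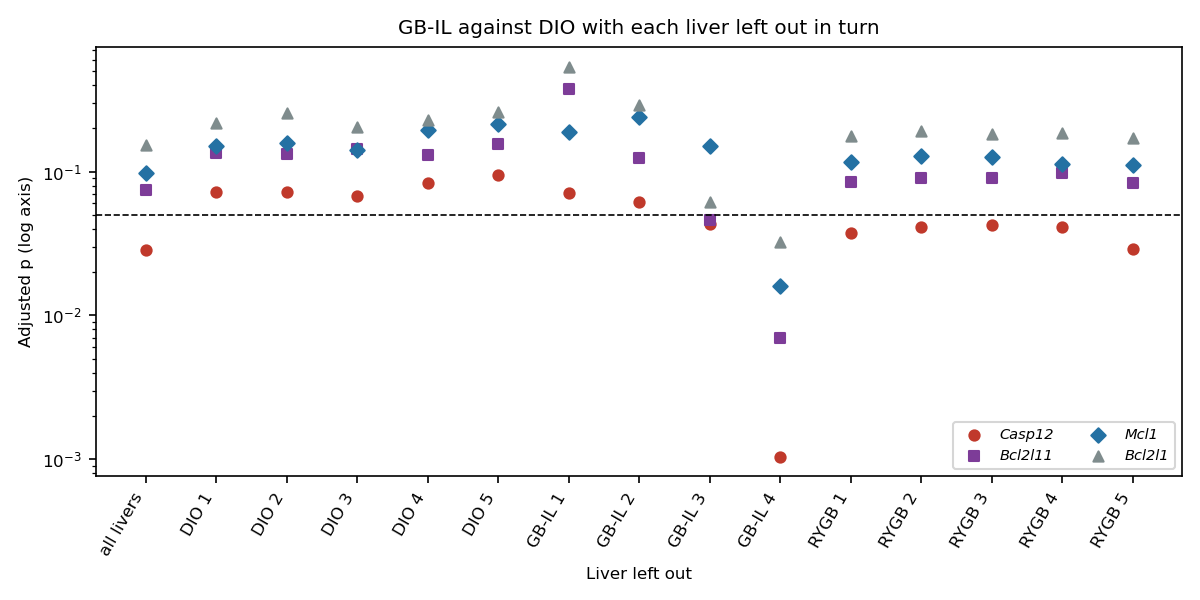
Adjusted p of Casp12, Bcl2l11, Mcl1 and Bcl2l1 in GB-IL against DIO (edgeR, log axis) with all livers and with each of the 14 livers left out in turn; the dashed line is 0.05. Casp12 lies below the line in 7 of 14 omissions, and all 4 genes lie below it only without GB-IL liver 4.

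The number of members past the threshold in GB-IL against DIO depended on single livers, as did the number of all genes. Without GB-IL liver 1, GB-IL liver 2 or any one DIO liver it was 0, and in each of these fits 0 genes passed in all. Without GB-IL liver 3 it was 2 (Bcl2l11 and Casp12), where 3.99% of all genes passed. Without GB-IL liver 4 it was 4 (Bcl2l1, Mcl1, Bcl2l11 and Casp12), where 24.6% of all genes passed. In GB-IL against RYGB the same 4 genes passed without GB-IL liver 4, beside 21.5% of all genes. With any other single liver left out no member did. Of all genes, 0.166% passed without GB-IL liver 3, and 0 genes passed in each of the other fits. The counts of members thus changed together with those over all genes.

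The ratio of effector to survival mRNA did not separate the groups without overlap. Bax to Bcl2 counts had a median of 11.1 in DIO (6.90 to 26.9), 10.3 in GB-IL (5.85 to 24.2) and 6.79 in RYGB livers (3.55 to 13.3). Bak1 to Mcl1 had a median of 0.123 in DIO (0.0854 to 0.180), 0.0736 in GB-IL (0.0594 to 0.108) and 0.106 in RYGB livers (0.0859 to 0.135). For this ratio GB-IL livers 1, 2 and 4 (0.0721, 0.0594 and 0.0750) lay below every DIO and every RYGB liver. Ranges of all 3 groups overlapped for both ratios, which were described without a test.

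The rest of the apoptosis pathway was followed through 7 lists of 70 genes, 69 of them listed in the table and 62 past the filter on low counts. Relative to DIO, 37 lay above and 25 lay below in GB-IL, with a median log2 fold change of 0.16, and 3 passed the test, all higher, beside 53.1% of all genes higher and 3.26% past the test. None of the 3 (Bcl2a1b, Casp4 and Atf3) passed without GB-IL liver 1, without GB-IL liver 2 or without any one of DIO livers 1 to 5, fits in which 0 genes passed in all. Voom with sample quality weights, which put 4.13% of all genes past the threshold, kept Bcl2a1b and Casp4, lost Atf3 and added Tnfrsf1a. Bcl2a1b, Casp4 and Atf3 each belong to a different list. Bcl2a1b encodes A1, a survival member of the BCL2 family induced in leukocytes. It was at 2.68, 4.69, 2.16 and 0.516 CPM in GB-IL livers 1 to 4 and at 0.336 to 0.458 CPM in DIO livers, from 6 to 9 reads each, so that every GB-IL liver exceeded every DIO liver. Its log2 fold change was 2.66 (SE 0.469, adjusted p = 0.0278, edgeR), but 79.2% of the runs of 50 bases in its exons are shared with other genes, chiefly copies such as Bcl2a1d, and the assignment of its reads is uncertain. The other survival gene tested, Bcl2l2 (BCL-W), gave -0.13.

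Casp4, which encodes the caspase that senses cytosolic lipopolysaccharide, was the caspase other than Casp12 that passed. It was at 8.98, 8.98, 10.2 and 2.32 CPM in GB-IL livers 1 to 4 against 1.36 to 2.80 CPM in DIO, so that, as for Casp12, GB-IL liver 4 alone lay within the DIO range (log2 fold change 1.92, SE 0.352, adjusted p = 0.0278, edgeR). Of the 8 other caspases tested, 3 including Casp4 were higher and 5 lower, with a median of -0.37. Casp8, the initiator caspase of death receptors, gave -0.63 (SE 0.259, adjusted p = 0.169, edgeR), 3 of 4 GB-IL livers lying below every DIO liver.

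Atf3, a stress-induced transcription factor of the ER stress list, was at 10.6, 6.38, 2.50 and 1.62 CPM in GB-IL livers 1 to 4 and at 0.396 to 1.13 CPM in DIO livers, with no overlap between the groups (log2 fold change 2.65, SE 0.627, adjusted p = 0.0365, edgeR). Among 12 ER stress genes GB-IL livers had the higher mean for 10 and the lower for 2, with a median of 0.60 against 0.04 over all genes, and 5 had an unadjusted p below 0.05 upward and 1 downward, beside 16.7% and 6.43% of all genes. Atf4, the factor translated when eIF2 alpha is phosphorylated, was at 331, 274, 73.5 and 67.5 CPM in GB-IL livers 1 to 4 against 58.9 to 95.4 CPM in DIO (log2 fold change 1.42, SE 0.407, adjusted p = 0.0684, edgeR). Atf4 was thus high in GB-IL livers 1 and 2 and within the DIO range in the other two, a division of the group that Bcl2l1 and Bid also showed, while for Casp12 liver 3 was the highest.

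No gene of the other 4 lists passed in GB-IL against DIO with edgeR on all livers and TMM scaling. Of effectors and BH3-only genes outside the members, 5 of 8 had a positive fold change, among them Bok, an effector related to Bax, with 0.61 (adjusted p = 0.19, edgeR). Apoptosome, mitochondrial and inhibitor of apoptosis genes were 10 higher and 4 lower. Apaf1, the scaffold that activates caspase-9, gave 0.73 (adjusted p = 0.153, edgeR) and Aifm1, the mitochondrial apoptosis-inducing factor, -0.51 (adjusted p = 0.134, edgeR).

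Death receptor genes were 3 higher and 5 lower, with Tnfrsf1a, the TNF receptor, at 0.91 (adjusted p = 0.0535, edgeR) and Tnfrsf10b, a TRAIL receptor, at 0.59 (adjusted p = 0.431, edgeR). Tnfrsf1a passed with upper quartile scaling, DESeq2 and voom, where 3.75%, 9.07% and 4.13% of all genes passed. The ligand genes Tnf and Fasl did not pass the filter on low counts. The 10 genes of p53 and its targets split evenly with a median of 0.05, with Trp53inp1 at 1.33 (adjusted p = 0.088, edgeR) and Sesn2 at 1.26 (adjusted p = 0.0927, edgeR). Trp53inp1 and Sesn2 passed with DESeq2, where 9.07% of all genes passed.

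**Figure D4:**
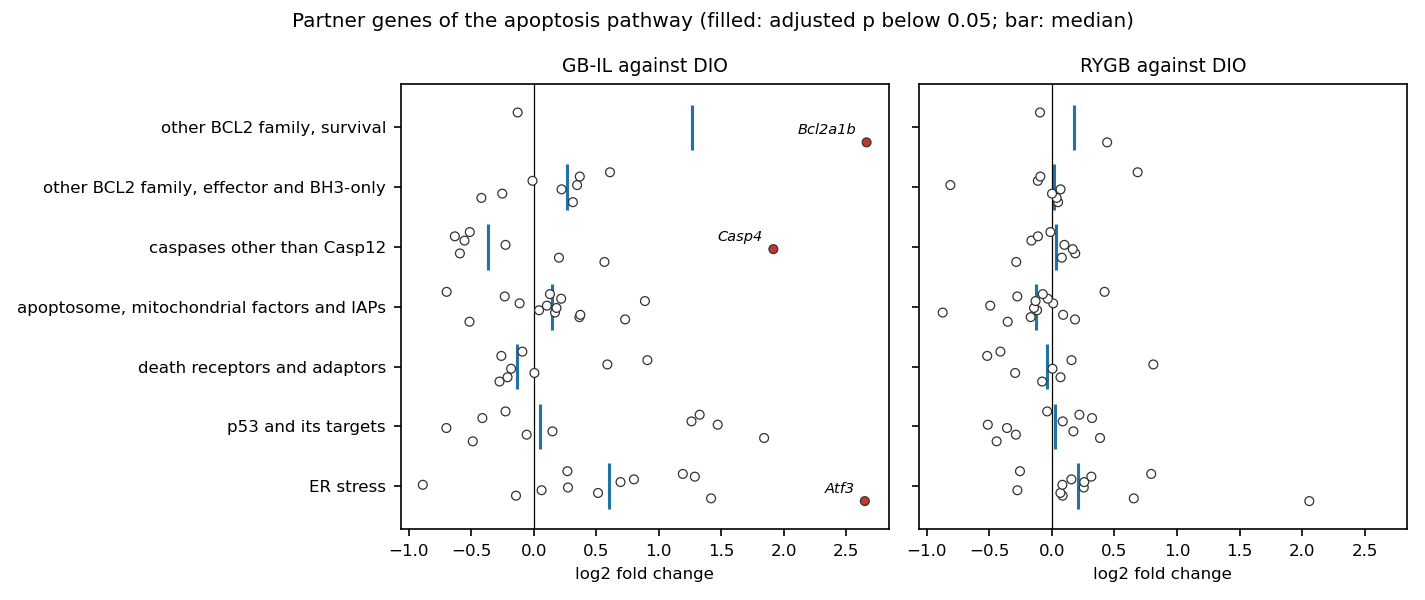
Log2 fold change of 62 genes of the apoptosis pathway in 7 lists, for GB-IL against DIO and RYGB against DIO (edgeR); a filled point has an adjusted p below 0.05, and the vertical bar is the median of a list. The 3 filled points, Bcl2a1b, Casp4 and Atf3, lie at 2.66, 1.92 and 2.65 in GB-IL, and no gene is filled for RYGB.

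In RYGB against DIO 33 of these 62 genes were higher and 29 lower, and none passed with edgeR or DESeq2. With voom and sample quality weights 5 passed, 2 higher and 3 lower, where 11.9% of all genes did, and 3 had an unadjusted p below 0.05 with edgeR, all higher, where 8.71% of all genes did. Atf3 was at 2.73, 2.27, 2.22, 1.16 and 9.0 CPM in RYGB livers, each above every DIO liver, with a log2 fold change of 2.06 (SE 0.60, adjusted p = 0.383, edgeR). Bok, at 9.51 to 13.0 CPM, also exceeded every DIO liver (0.69, adjusted p = 0.497, edgeR). Perp, of the p53 list, lay below every DIO liver in all 5 RYGB livers (-0.36, adjusted p = 0.773, edgeR). Over all genes 1.87% separated upward and 1.66% downward. Casp4, by contrast, was at 1.68 to 2.56 CPM, within the DIO range, and Bcl2a1b gave 0.44 (adjusted p = 0.823, edgeR). In GB-IL against RYGB none of the 62 passed with edgeR, 17 had an unadjusted p below 0.05 (14 higher and 3 lower), where 22.1% of all genes did. DESeq2 put 5 past the threshold (5.93% of all genes) and voom 1 (0.807% of all genes), and the adjusted p with edgeR was 0.0645 for both Casp4 and Bcl2a1b.

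Within groups, some pairs of members varied together or in opposite directions. Correlations of log2 CPM, taken as deviations from the group means, were highest between Bcl2l1 and Bcl2l11 (Pearson's r = 0.80) and between Mcl1 and Casp12 (r = 0.65). The most negative ones were between Bcl2l1 and Bid (r = -0.73) and between Bid and Bbc3 (r = -0.63). These are descriptions in which both genes of a pair were read from the same library in each liver, and GB-IL liver 1 had the highest Bcl2l1 and Bcl2l11 levels of all livers. The SD of Bcl2l1 was 48.4% of its mean in GB-IL, 6.98% in DIO and 3.51% in RYGB livers. Its correlations thus rest mostly on the GB-IL livers, and the pairs were not correlated again with livers left out.

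Outside the members, the genes whose deviations were most like those of Casp12, among 12686 genes with at least 1 CPM, were Nfasc (r = 0.92, Spearman's rho = 0.91), Fgfr4 (r = 0.89, rho = 0.87) and Zfp251 (r = 0.86, rho = 0.85). Without GB-IL livers 3 and 4, the 2 farthest from the median, r was 0.83, 0.83 and 0.70. For Bax they were Deaf1 (r = 0.93), Gm10712 (r = 0.93) and Rps19 (r = 0.92), the last encoding a protein of the small ribosomal subunit, and for Bcl2 Snx2 (r = 0.84), Actr3 (r = 0.82) and Coro2a (r = 0.80). Each is the top of a search over all these genes and is given without a p.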

How the data were processed

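Liver RNA of 14 mice was sequenced, and per the labels TopHat2 and HTSeq were used. The deposited values are whole counts per gene, made by the authors on mm10 without normalization, whose precision is limited by the number of reads. For the versions, the strand setting and the annotation nothing was found in the sources used here. A stranded mRNA kit and a total RNA kit are named in the labels, without the livers they served, and an amplification step in the methods, so kit could not be a term. The labels also list hg19. Whether livers of a group were processed apart is not stated. The p-values set a difference between groups against the spread between livers. They could not separate an operation from a kit or batch that coincided with it.

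Genes were kept by filterByExpr, scaled by TMM and fitted by edgeR 4.0.16 (R 4.3.3) with a mean per group over all 14 livers, 14252 genes tested, Benjamini-Hochberg threshold 0.05. Standard errors and 95% intervals were derived from the same quasi-likelihood fit. CPM is scaled by TMM for genes, and per total count for marker lists. Exon lengths and positions are of GENCODE M21, to which 24701 identifiers matched, and promoters of RefSeq GRCm38.p6. The code was tested on simulated data. The members and lists were chosen with earlier results of these data known. Named were all 10 members, from each pathway list the genes called and at most the 2 with the smallest p in GB-IL against DIO, and the 3 genes most like Casp12, Bax and Bcl2. Perp was named outside this rule, because it separated RYGB from DIO livers without overlap. Alternatives were RLE and upper quartile scaling, no filter, a mean of at least 50 counts, the replicate number as a block, DESeq2 1.42.0, voom with sample quality weights (limma 3.58.1), the 2 compared groups only, and each liver left out in turn.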

Additional observations from a re-analysis of the deposited data

Results flagged for a closer look

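One of 30 sets of livers (10 members in 3 groups) held a liver far from the others by Dixon's test, which chance gives in about 1 in 20 sets. Bbc3 was at 2.98 CPM in RYGB liver 5, whereas the next lowest RYGB liver was at 7.0 CPM, so that the gap took 0.779 of the range of the group. The same liver had the highest neutrophil marker sum of its group (91.1 CPM) and the highest Atf3 level (9.0 CPM), and whether these are related was not tested. No member was moved in opposite directions from DIO by the 2 operations in every liver.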

How the results depend on the processing

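In GB-IL against DIO, Casp12 lost its call with the replicate block (log2 fold change 1.48, adjusted p 0.082) and with the 2 compared groups only (1.56, adjusted p 0.0976), with 0 members and 0 pathway genes called in both. Over all genes the block fit called 1 of 14252 and the fit of 2 groups 0 of 13792. Casp12 kept its call under both scalings, both filters, DESeq2 and voom. With single livers left out its log2 fold change ranged from 1.31 to 1.81. DESeq2 called 3 members and 9 pathway genes in GB-IL against DIO (9.07% of all genes, and 4.13% with voom), and 2 and 5 in GB-IL against RYGB (5.93%). Voom called 1 member and 5 pathway genes in RYGB against DIO (11.9%) and 1 pathway gene in GB-IL against RYGB (0.807%). With single livers left out, members called ranged from 0 to 4 and pathway genes from 0 to 18 in GB-IL against DIO, from 0 to 4 and 0 to 15 in GB-IL against RYGB, and were 0 throughout in RYGB against DIO. The highest counts came without GB-IL liver 4, where 24.6% and 21.5% of all genes were called. In GB-IL against DIO the counts of 0 came from fits that called 0 genes in all. In GB-IL against RYGB they came from fits that called at most 0.166% of all genes, and in RYGB against DIO at most 0.0345%. Uncalled values changed sign as follows. Bak1 in GB-IL against DIO was 0.093 with voom and ranged from -0.37 to 0.035 with livers left out. In RYGB against DIO, Bax ranged from -0.17 to 0.11 and Pmaip1 from -0.15 to 0.20. In GB-IL against RYGB, Bid was -0.016 without a filter, -0.032 with the replicate block and ranged from -0.27 to 0.20, and Bak1 ranged from -0.10 to 0.31. Bcl2 and Pmaip1 have no value under the mean of at least 50 counts, and since all 10 members were tested, the planned rates of summed counts were not needed. The causes were not tested. Deviations of same-numbered livers had r from -0.41 to 0.01 over 4 pairs of GB-IL and DIO livers, and -0.26 to 0.03 over 5 of RYGB and DIO. Over 4 pairs of GB-IL and RYGB livers r was 0.02 to 0.40, above 0.1 in 2 of them. Differently numbered livers of these 2 groups ranged from -0.45 to 0.44. So few pairs cannot settle whether the numbers pair the livers. The block left the other member calls as they were. Low counts limited Casp12, Bcl2 and Pmaip1 most, with 7 to 162 reads per liver.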
